A study of Mus musculus with 4 samples.

Results

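The primary cilium is a single antenna-like projection of the cell surface, built on a basal body and fenced off by a transition zone at its base. Intraflagellar transport (IFT) carries its building blocks: kinesin-2 motors move IFT-B trains outward, and dynein-2 with IFT-A returns them to the base. The BBSome, a coat of Bardet-Biedl syndrome proteins, moves membrane receptors out of the cilium. In vertebrates the cilium passes on Hedgehog signals, which act in tooth formation and in incisor stem cells. The genes described here are 43 named members of this machinery. Their names form a list of ciliary genes drawn up with earlier results of these data known, and rows were taken by matching the gene symbol. All 43 of 43 had a row of their own among 24216 rows of the authors' deposited table. Each of the 43 had been tested by the authors.

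The table compares sorted cells of molar pulp with sorted cells of incisor pulp from XLacZ4 mice, with 2 libraries per tissue by the labels. XLacZ4 is a transgenic line in which the mural cells of small vessels, that is pericytes and smooth muscle cells, make beta-galactosidase. Cells were collected by flow sorting for cleavage of FDG, a fluorogenic substrate of that enzyme, and both tissues share this strain and sort. The labels used here give neither age nor sex nor the number of animals, and the protocol text of the incisor libraries names molars, so tissue was taken from titles and tissue labels. The deposited values are FPKM, fragments per kilobase of transcript scaled to sequencing depth, with 1 combined value per tissue. There is therefore no replicate error to print, and the depth of each library is unknown. A gene is named called where the authors' q lies under 0.05, and a positive log2 fold means higher in molar. Sorting, library preparation and tooth type cannot be told apart as sources of a difference, and in such bulk values fewer cells of a type and less RNA per cell cannot be told apart.

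The sorted fractions held RNA of several cell types. Mural markers were present in both tissues, with summed levels over 12 genes of 328.6 FPKM in molar and 840.2 FPKM in incisor, none listed at 0. Of these, 2 were called higher in molar, and 3 were called higher in incisor. Endothelial markers summed to 305.5 FPKM in molar and 21.8 FPKM in incisor, with 11 of 12 called higher in molar and Cldn5 listed at 0 in incisor. Dental epithelial markers summed to 2642 FPKM in molar and 23510 FPKM in incisor, with 8 of 12 called higher in incisor and none listed at 0. Markers of cycling cells, which lose the cilium before division, summed to 500.5 FPKM in molar and 584.8 FPKM in incisor, and of 13 genes 1 was called higher in molar while 5 were called higher in incisor. Of 18 dissociation stress genes, 13 were called higher in molar and 1 was called higher in incisor, and their summed levels were 7414 FPKM in molar and 817.3 FPKM in incisor. Macrophage markers were the most abundant of the blood and immune lists, summing over 12 genes to 10050 FPKM in molar and 6077 FPKM in incisor, with 5 called higher in molar and 2 called higher in incisor. Pulp fibroblast markers summed over 8 genes to 4555 FPKM in molar and 2461 FPKM in incisor, with 3 called higher in molar and 3 called higher in incisor. Red cell markers summed over 7 genes to 203.9 FPKM in molar and 6.09 FPKM in incisor, with 4 of 6 tested genes called higher in molar. None of these was listed at 0. These markers move with the tissue in every result below, and their part in the ciliary values was not tested.

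Ciliary genes were detected in both tissues, and most were not called. In the authors' deposited table, Ift43 and Kif3a were called higher in molar, and Ift122, Wdr35, Bbs9 and Dync2h1 were called higher in incisor. The other 37 members were not called. Thus 2 of 43 members (4.65%) were called higher in molar, where 11.9% of all tested rows were, and 4 of 43 (9.30%) were called higher in incisor, where 4.28% of all tested rows were. With q under 0.01, the 2 calls higher in molar remained and none of the 4 higher in incisor did. No member was listed at 0, and 39 of 43 reached 1 FPKM in at least 1 tissue. Bbs1, Bbs10, Wdr19 and Rpgrip1l stayed below that level in both. The median level of the members was 3.18 FPKM in molar and 4.14 FPKM in incisor. Of the 43 genes, 22 had the higher value in molar and 21 in incisor, called or not, or 51.2% higher in molar against 54.5% of the 13082 genes at 1 FPKM or more. The median log2((molar FPKM + 1) / (incisor FPKM + 1)) of the 39 members was 0.07, beside 0.14 over those 13082 genes. That median changed sign, to -0.16, when values were centred on the median gene, and to -0.49 with equal FPKM totals.

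**Figure D1:**
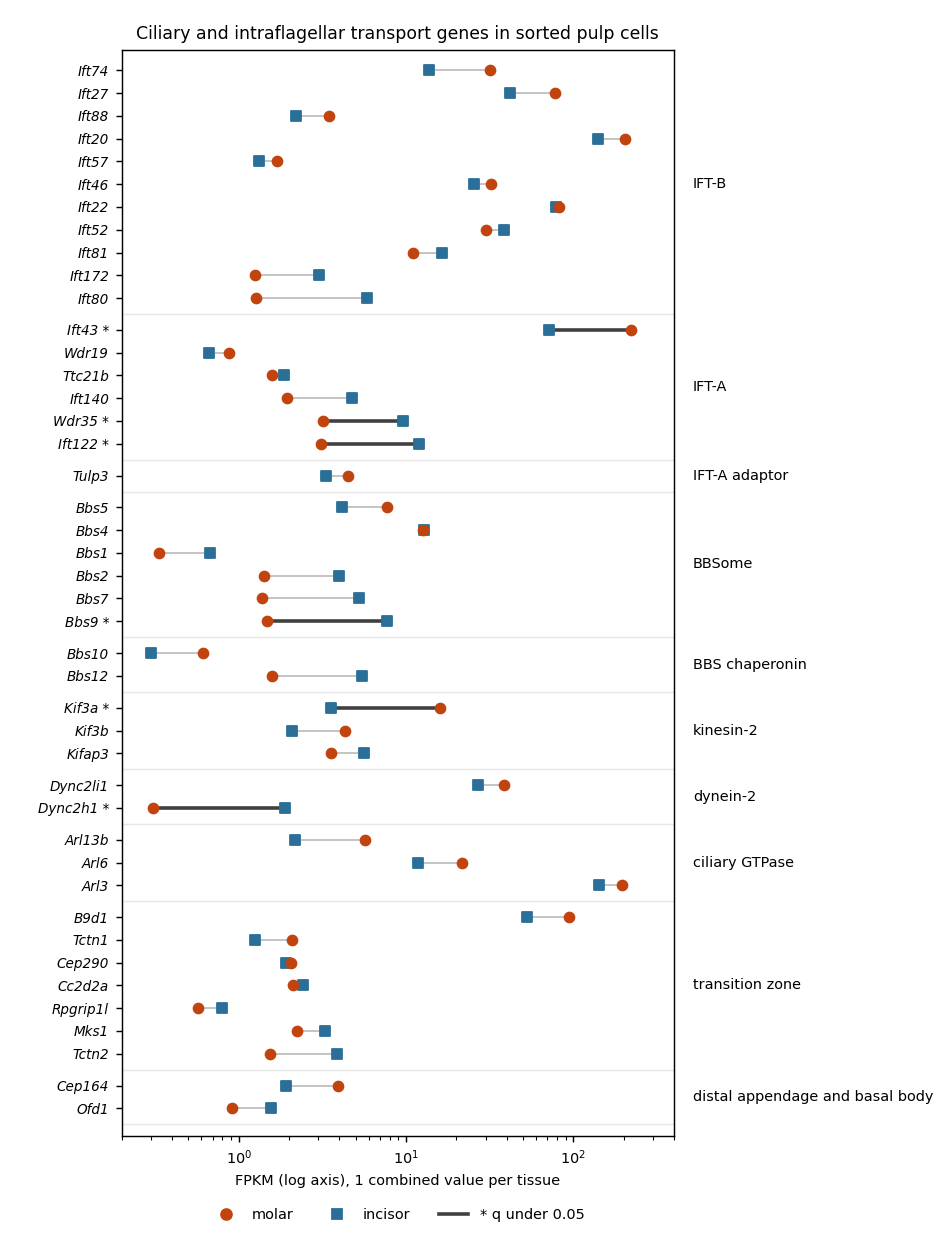
FPKM of the 43 genes on a log axis, with the molar value as a circle and the incisor value as a square for each gene, grouped by role; each tissue has 1 combined value, so there are no error bars. Thick lines and asterisks mark the 6 called genes: Ift43 and Kif3a have the molar circle on the right, and Wdr35, Ift122, Bbs9 and Dync2h1 have the incisor square on the right.

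IFT-A, the complex that returns trains to the base and admits membrane proteins to the cilium, held 3 of the 6 called genes, and they lay on opposite sides. Ift43, a small peripheral subunit (mm10 chromosome 12, 86082561 to 86162459), stood at 222.5 FPKM in molar and 71.3 FPKM in incisor in the authors' deposited table. This is a 3.12-fold higher level in molar (log2 fold 1.64, q = 0.00278), and the 222.5 FPKM is the highest molar value of all 43 genes. Ift122, a core subunit (mm10 chromosome 6, 115853528 to 115926699), had 3.12 FPKM in molar against 11.9 FPKM in incisor, a log2 fold of -1.93 with q = 0.0177. Wdr35, also known as IFT121 (mm10 chromosome 12, 8974001 to 9028847), had 3.18 FPKM in molar against 9.55 FPKM in incisor, a log2 fold of -1.59 with q = 0.0345. So within a single complex the deposited FPKM of Ift43 over that of Ift122 was 71.2 in molar and 5.98 in incisor. The molar level of Ift122 lies under 3.78 FPKM, the 99th percentile there of chemoreceptor genes (receptors of smell and taste), and the genes differ in length, at 783 bases for Ift43 and 4122 bases for Ift122. Over all genes the median log2 difference was 1.06 in the length class of Ift43 and -0.25 in that of Ift122.

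The other IFT-A subunits were not called. Ift140, whose loss in mice blocks retrograde transport, had 1.95 FPKM in molar and 4.77 FPKM in incisor (log2 fold -1.29, q = 0.305), and its interval overlaps the row of Tmem204. Ttc21b, a subunit that also regulates Hedgehog output in mouse embryos, stood at 1.58 FPKM in molar and 1.87 FPKM in incisor. Wdr19 was low in both, at 0.881 FPKM in molar and 0.664 FPKM in incisor. Tulp3, the adaptor that IFT-A uses to bring receptors into the ciliary membrane, had 4.51 FPKM in molar and 3.33 FPKM in incisor. Of the 6 subunits, 1 was called higher in molar and 2 were called higher in incisor, with a median log2 difference of -0.97 over the 5 that reached 1 FPKM.

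None of the 11 IFT-B genes, which build the outward trains, was called in either direction at q under 0.05 in the authors' deposited table. Their levels lay between 1.25 and 204.8 FPKM in molar and between 1.32 and 139.9 FPKM in incisor. Ift20, the subunit that also sits at the Golgi and sorts membrane cargo, was the highest, at 204.8 FPKM in molar and 139.9 FPKM in incisor. The small GTPase-like subunits followed, with Ift22 at 82.2 FPKM in molar and 78.4 FPKM in incisor and Ift27 at 77.4 FPKM in molar and 41.8 FPKM in incisor. Ift46, Ift52 and Ift74, structural subunits of the IFT-B core, stood at 32.4, 30.2 and 31.8 FPKM in molar and at 25.6, 38.8 and 13.8 FPKM in incisor. These 6 genes kept the top places in molar, and Ift81 (11.0 FPKM in molar and 16.4 FPKM in incisor), the tubulin-binding partner of Ift74, took the sixth place in incisor ahead of Ift74.

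The remaining IFT-B genes were low. Ift88, the gene most used to remove cilia in mice, had 3.47 FPKM in molar and 2.20 FPKM in incisor (log2 fold 0.66, q = 0.311). Ift57 had 1.70 FPKM in molar and 1.32 FPKM in incisor, and Ift172, the largest IFT-B protein, had 1.25 FPKM in molar and 3.02 FPKM in incisor. The widest differences of the group were those of Ift74 toward molar (log2 fold 1.20, q = 0.0790) and of Ift80 toward incisor, at 1.28 FPKM in molar and 5.88 FPKM in incisor (log2 fold -2.20, q = 0.0926). Both missed the threshold, and the interval of Ift74 overlaps the rows of Lrrc19 and Mir872. The median log2 difference of the 11 genes was 0.22, with the higher value in molar for 7 and in incisor for 4. It was -0.01 with values centred on the median gene and -0.25 with equal FPKM totals.

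Among motor genes the kinesin and the dynein side each held a called gene. Kif3a, the motor subunit common to heterotrimeric kinesin-2 (mm10 chromosome 11, 53567369 to 53604246), stood at 16.1 FPKM in molar and 3.57 FPKM in incisor in the authors' deposited table. That is 4.50-fold higher in molar (log2 fold 2.17, q = 0.000664), the widest molar-higher difference among the 43 genes. Its motor partner Kif3b had 4.31 FPKM in molar and 2.09 FPKM in incisor (log2 fold 1.04, q = 0.140), and the cargo-binding subunit Kifap3 had 3.57 FPKM in molar and 5.59 FPKM in incisor (log2 fold -0.65, q = 0.277). Neither partner was called. Kif3a over Kif3b was 3.73 in molar and 1.71 in incisor on the FPKM scale. Dync2h1, the heavy chain that powers return transport (mm10 chromosome 9, 6928503 to 7177046), had 0.307 FPKM in molar and 1.90 FPKM in incisor, a log2 fold of -2.63 with q = 0.0246. With a pseudocount of 1 the same difference was -1.15, and the molar value lies under the 3.78 FPKM that chemoreceptor genes reached in molar. Its light intermediate chain Dync2li1 was far more abundant per length, at 38.5 FPKM in molar and 26.8 FPKM in incisor, and was not called.

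BBSome genes mostly had the lower value in molar, and 1 of 6 was called. Bbs9, a scaffold subunit (mm10 chromosome 9, 22475715 to 22888280), had 1.48 FPKM in molar and 7.71 FPKM in incisor in the authors' deposited table, a log2 fold of -2.38 with q = 0.0481, the q nearest the threshold among called members. Its neighbours in the complex Bbs2 (1.42 FPKM in molar and 4.002 FPKM in incisor) and Bbs7 (1.38 FPKM in molar and 5.21 FPKM in incisor) had log2 folds of -1.50 and -1.91 but q values of 0.284 and 0.252. Bbs1, which contacts the GTPase Arl6, was low at 0.333 FPKM in molar and 0.675 FPKM in incisor. Bbs4 hardly differed, at 12.6 FPKM in molar and 12.8 FPKM in incisor, and was the most abundant BBSome gene in both tissues. Bbs5 was the exception in direction, at 7.74 FPKM in molar and 4.14 FPKM in incisor (log2 fold 0.90, q = 0.252). The median log2 difference of the 5 BBSome genes at 1 FPKM or more was -1.05. Of all 6 genes, 5 had the lower value in molar, Bbs4 by little. Among all 13082 genes at 1 FPKM or more, 5950 had the lower value in molar. The molar values of Bbs1, Bbs2, Bbs7 and Bbs9 lie under 3.78 FPKM, the 99th percentile of chemoreceptor genes there.

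The chaperonin-like proteins that assemble the BBSome were not called. Bbs12 had 1.59 FPKM in molar and 5.50 FPKM in incisor (log2 fold -1.79, q = 0.182), and Bbs10 had 0.613 FPKM in molar and 0.299 FPKM in incisor. Ciliary GTPases had the higher value in molar in all 3 cases, beside 54.5% of the 13082 genes at 1 FPKM or more, and none was called. Arl3, which releases lipid-anchored cargo inside the cilium, was abundant at 196.3 FPKM in molar and 143.3 FPKM in incisor (log2 fold 0.45, q = 0.317). Arl13b, the activator of Arl3 and a common marker of the ciliary membrane, had 5.67 FPKM in molar and 2.16 FPKM in incisor (log2 fold 1.39, q = 0.109). Arl6, which recruits the BBSome to membranes, had 21.8 FPKM in molar and 11.8 FPKM in incisor. The Arl6 row spans the locus of Epha6 and the Arl13b row overlaps Stx19, so their values may share reads with those genes. With equal FPKM totals the log2 fold of Arl3 turned to -0.14.

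None of the 7 transition zone genes was called in either direction. B9d1, of the B9 complex, was abundant at 93.9 FPKM in molar and 53.0 FPKM in incisor (log2 fold 0.82, q = 0.210), while every other gene of the group stayed under 4 FPKM in both tissues. Cep290, which tethers the membrane to the axoneme, had 2.04 FPKM in molar and 1.91 FPKM in incisor (log2 fold 0.10, q = 0.831), and Cc2d2a had 2.11 FPKM in molar and 2.41 FPKM in incisor. Tctn2 lay lowest by fold, at 1.54 FPKM in molar and 3.88 FPKM in incisor (log2 fold -1.33, q = 0.304), whereas its paralogue Tctn1 had 2.08 FPKM in molar and 1.26 FPKM in incisor. Mks1 had 2.23 FPKM in molar and 3.29 FPKM in incisor, and the scaffold Rpgrip1l had 0.572 FPKM in molar and 0.795 FPKM in incisor. At the basal body, Cep164, the distal appendage protein that docks the vesicle starting a cilium, had 3.92 FPKM in molar and 1.92 FPKM in incisor (q = 0.193). Ofd1, which controls centriole length, had 0.919 FPKM in molar and 1.57 FPKM in incisor (q = 0.337).

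The members' differences followed transcript length in the same sense as those of all genes. Lengths were those of the longest GENCODE M21 transcript with a RefSeq mRNA, or of the longest transcript where a gene had none. All 8 members of at most 2000 bases (Ift43, B9d1, Arl3, Ift27, Ift20, Dync2li1, Bbs5 and Arl6) had the higher value in molar, with a median log2 difference of 0.79. Among all 3854 genes of that length 77.3% were higher in molar, with a median of 0.92. Of the 35 longer members, 14 were higher in molar and 21 in incisor, with a median of -0.35, beside 44.4% higher in molar and a median of -0.15 over 8849 genes. Calls followed the same course over all genes at 1 FPKM or more: 26.9% of those up to 1000 bases and 29.8% of those over 1000 to 2000 bases were called higher in molar, then 15.0%, 10.2%, 8.25% and 5.62% of those in the classes ending at 3000, 4000 and 6000 bases and above 6000 bases. The shares called higher in incisor over the same classes were 1.65%, 1.70%, 6.29%, 8.26%, 8.20% and 7.64%. Across genes, Spearman's rho between length and the log2 difference with a pseudocount of 1 was -0.39 over the 39 members at 1 FPKM or more and -0.37 over 12703 genes at that level, all from the same combined values.

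Set against the median of its own length class, Ift43 (783 bases) exceeded it by 0.57, since short genes as a whole stood at 1.06. Kif3a (3161 bases) exceeded the median of its class by 2.07. Ift122 (4122 bases) and Wdr35 (4501 bases) lay at -1.40 and -1.09 relative to theirs, Bbs9 (3495 bases) at -1.64 and Dync2h1 (13972 bases) at -0.87. Each of the 6 called genes kept its side. This was bound to hold, since the class medians, between 1.06 and -0.27, were smaller in size than each called difference. The other 7 members of at most 2000 bases, none of them called, lay under the median of their class by differing amounts. Arl3 (1005 bases) lay at -0.42, Dync2li1 (1354 bases) at -0.37, Ift20 (1141 bases) at -0.33 and B9d1 at -0.25. Bbs5 lay at -0.11, Arl6 at -0.047 and Ift27 at -0.00056, the last nearly on the median. Length also went with the level: rho between length and mean FPKM was -0.69 over the 39 members and -0.33 over the 12703 genes. The part of length in the called differences was not tested.

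**Figure D2:**
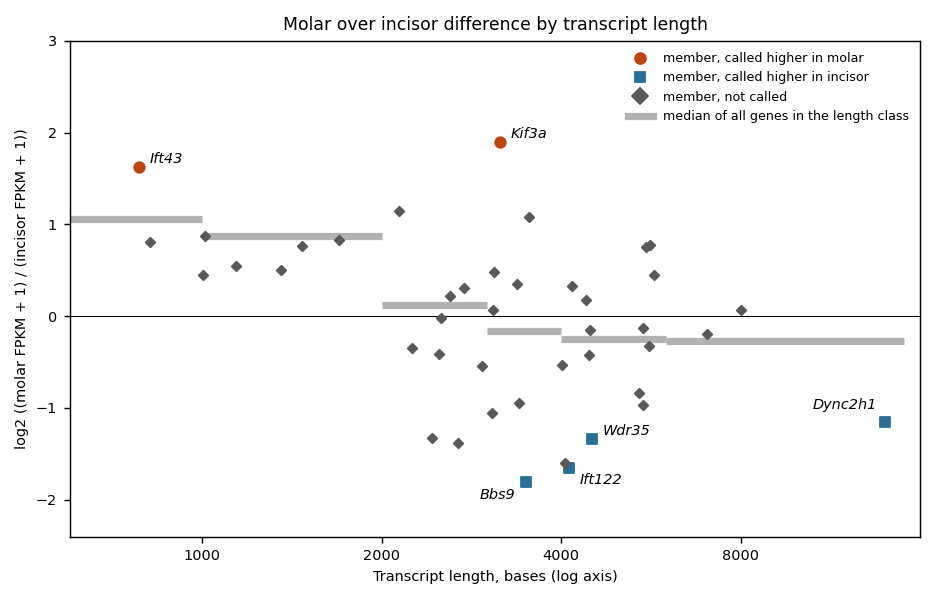
Difference between tissues, as log2((molar FPKM + 1) / (incisor FPKM + 1)), against transcript length in bases on a log axis, 1 point per member; grey bars are medians of all genes at 1 FPKM or more in each length class. The bars step down between 1.06 for the shortest and -0.27 for the longest genes, and Kif3a lies furthest above them while Bbs9 and Ift122 lie lowest among the members.

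Low levels limit several of these values. Genes for olfactory, vomeronasal and taste receptors, which pulp cells are not known to use, covered 1484 symbols. In molar their median was 0.115 FPKM, their 95th percentile 1.23 FPKM and their 99th percentile 3.78 FPKM. In incisor the median and the 95th percentile were 0 and the 99th percentile was 0.135 FPKM. The molar value of 24 of the 43 members lay under the molar 99th percentile, among them Ift122, Wdr35, Bbs9 and Dync2h1. No incisor value lay under the incisor 99th percentile. A minimum mean of 3.78 FPKM over both tissues was also set, chosen after the data were seen. It left 2 members called higher in molar and 3 called higher in incisor, without Dync2h1. Those 3, Ift122, Wdr35 and Bbs9, pass this minimum only through their incisor values. The count therefore does not test their low molar values.

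Ciliary gene promoters often carry an X-box, the site that RFX transcription factors bind. The RefSeq promoter windows of GRCm38.p6, 250 bases before to 50 bases after the start of a gene, were present for 39 of the 43 members. The letters GTTNCC, then 2 bases of any kind, then GGNAAC, on either strand, occurred in 3 of these 39 (7.69%) and in 0.529% of 27025 genes with a window. A looser form with GTNNCC in place of GTTNCC, which includes the stricter one, occurred in 8 of 39 (20.5%) and in 1.49% of all. Both spellings were chosen after match counts had been seen, so these shares are a description only. The sites are shown so that the matched letters can be read beside the values of the 8 genes. Each is read on the strand of its gene, with the matched letters in capitals. In Bbs1, Ift57 and Tctn2 the match lies on the opposite strand, so their capitals show the reverse complement of the looser form.
Bbs7: gcgccccgGTTGCCTTGGAAACcggccagc
Mks1: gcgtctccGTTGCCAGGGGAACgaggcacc
Tctn1: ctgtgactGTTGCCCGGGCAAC
Bbs1: ctgagctgGTTGCCAAGGCGACgcctggga
Bbs4: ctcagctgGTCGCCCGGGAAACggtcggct
Ift22: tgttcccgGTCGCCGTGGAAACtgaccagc
Ift57: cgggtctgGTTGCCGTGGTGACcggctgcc
Tctn2: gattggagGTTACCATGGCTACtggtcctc
The first 3 hold the stricter form. They lie at chr3:36613489-36613518 (minus strand), chr11:87853183-87853212 (plus strand) and chr5:122264411-122264432 (minus strand), beginning their match 121 bases before the start in Bbs7, 24 bases before it in Mks1 and after it in Tctn1. The sites of Bbs1 (chr19:4906605-4906634) and Bbs4 (chr9:59353464-59353493), both on the minus strand, begin just after the start. Those of Ift22 (chr5:136908109-136908138, the nearer of 2 matches), Ift57 (chr16:49699199-49699228) and Tctn2 (chr5:124598679-124598708), all on the plus strand, begin 33, 87 and 62 bases before it.

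None of these 8 members was called, and their log2 folds ran from -1.91 for Bbs7 to 0.73 for Tctn1, with 3 higher in molar and 5 higher in incisor. A match describes the letters only, and binding was not measured. Of the RFX factors, Rfx1 was called, with the higher value in molar, in the authors' deposited table (1.73 FPKM in molar and 0.151 FPKM in incisor, q = 0.00375). Its molar value lies under 3.78 FPKM, the 99th percentile of chemoreceptor genes there. Rfx3, a main driver of ciliary genes in mice, had 0.260 FPKM in molar and 0.384 FPKM in incisor, and Rfx2 had 0.595 FPKM in molar and 1.17 FPKM in incisor. Neither of these was called, and Rfx2 was named after its value was seen.

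Other subunits of the same complexes were taken from a list of 20 genes. They gave 5 calls higher in molar and 1 call higher in incisor by the q of the authors' deposited table. Their median log2 difference was 0.58. For this list and each list below, the shares over all tested rows were 11.9% called higher in molar and 4.28% in incisor. Hspb11, also known as IFT25 and the partner of Ift27, stood at 139.5 FPKM in molar and 17.5 FPKM in incisor (log2 fold 2.99, q = 0.000664). Dynlt1b, a light chain of cytoplasmic dyneins, had 39.3 FPKM in molar and 0.566 FPKM in incisor, though it has near-identical gene copies and its value is uncertain. The dynein-2 chains Wdr34 (11.8 FPKM in molar and 2.77 FPKM in incisor) and Tctex1d2 (74.4 FPKM in molar and 21.7 FPKM in incisor) were called higher in molar too, as was the shared light chain Dynll1 (320.7 FPKM in molar and 123.0 FPKM in incisor). These 3 names were chosen after their values were seen. The dynein chains Wdr60 (5.79 FPKM in molar and 3.01 FPKM in incisor, q = 0.176) and Dynlrb1 (706.4 FPKM in molar and 471.8 FPKM in incisor, q = 0.252) were not called. Both were likewise named after their values were seen. The 3 called chains stand beside a heavy chain, Dync2h1, called in the other direction. Its 0.307 FPKM in molar lies under 3.78 FPKM, the 99th percentile of chemoreceptor genes there. Transcripts had 1814 bases for Wdr34, 838 bases for Tctex1d2, 2030 bases for Dynll1 and 13972 bases for Dync2h1. Over all genes in the length classes of the first 3, the shares called higher in molar were 29.8%, 26.9% and 15.0%. In the class of Dync2h1, 7.64% were called higher in incisor. The part of length in this contrast was not tested. Ttc30a2, called higher in incisor, was listed at 0 in molar and stood at 0.155 FPKM in incisor, and it too has close copies. The BBSome subunit Ttc8 had 5.83 FPKM in molar and 15.3 FPKM in incisor, and the IFT-B subunit Traf3ip1 had 2.76 FPKM in molar and 8.49 FPKM in incisor. Neither was called, and both were named after their values were seen.

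Further transition zone and inversin genes were called in 2 of 20 cases, both higher in molar. B9d2, which binds B9d1, had 63.5 FPKM in molar and 3.20 FPKM in incisor (log2 fold 4.31, q = 0.000664), and Tmem17 had 10.6 FPKM in molar and 1.93 FPKM in incisor. The median log2 difference of that list was -0.19. Among 25 basal body, centriole and satellite genes, Pcnt was called higher in molar (1.77 FPKM in molar and 0.564 FPKM in incisor) and Odf2, a component of centriolar appendages, higher in incisor (5.20 FPKM in molar and 24.7 FPKM in incisor), with a list median of -0.14. Tmem17, Pcnt and Odf2 were named after their values were seen.

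Of 26 genes listed for ciliary membrane cargo and its delivery, 5 were called higher in molar and none was called higher in incisor. The median log2 difference was 0.10. Rab11a, a GTPase of recycling vesicles, had 75.4 FPKM in molar and 6.70 FPKM in incisor (log2 fold 3.49, q = 0.000664) in the authors' deposited table. Pde6d, which shuttles prenylated proteins that Arl3 unloads, had 25.0 FPKM in molar and 3.32 FPKM in incisor (log2 fold 2.92, q = 0.00756). Of 4 further genes of this list whose proteins sit in the ciliary membrane, none was called. Gpr161 had 0.889 FPKM in molar and 0.798 FPKM in incisor, and Adcy3 had 2.54 FPKM in molar and 0.669 FPKM in incisor. The polycystins Pkd1 and Pkd2 had 0.910 and 2.47 FPKM in molar and 2.14 and 3.73 FPKM in incisor.

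Of 24 Hedgehog genes that act through the cilium, 1 was called higher in molar and 2 were called higher in incisor, with a median log2 difference of -0.74. Gsk3b, a kinase that phosphorylates Gli proteins and acts in Wnt signalling too, had 3.70 FPKM in molar and 25.6 FPKM in incisor (log2 fold -2.79, q = 0.000664). The receptor Ptch1, which sits in the ciliary membrane until its ligand binds, was called too, at 2.59 FPKM in molar and 13.6 FPKM in incisor. The call higher in molar was the ligand Dhh, at 1.77 FPKM in molar and 0.290 FPKM in incisor (log2 fold 2.61, q = 0.0297). Its molar value lies under 3.78 FPKM, the 99th percentile of chemoreceptor genes there. Ptch1 and Dhh were named after their values were seen. The pathway's ciliary transducer Smo was not called, at 11.6 FPKM in molar and 15.1 FPKM in incisor (q = 0.383). Genes of ciliary disassembly were called higher in incisor in 3 of 11 cases (Aurka, Nedd9 and Nde1) in the authors' deposited table. They were called higher in molar in 1 case (Plk1). Over all tested rows 4.28% were called higher in incisor and 11.9% higher in molar. Aurka, the kinase that starts resorption of the cilium and also drives mitosis, had 16.9 FPKM in molar and 54.1 FPKM in incisor, and its scaffold Nedd9 had 4.19 FPKM in molar and 19.4 FPKM in incisor. Nde1 had 26.0 FPKM in molar and 91.6 FPKM in incisor, and Plk1 had 9.88 FPKM in molar and 2.69 FPKM in incisor. The 4 were named after their values were seen. Cycling markers were called higher in incisor in 5 of 13 cases as well, and their part in this list was not tested.

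Over all 9 ciliary lists, 182 genes outside the 43 members had a row, and 22 of 173 tested (12.7%) were called higher in molar and another 8 (4.62%) were called higher in incisor. Over all tested rows the shares were 11.9% and 4.28%. The median log2 difference of these ciliary genes was -0.14. By length, 12 of the 22 molar-higher genes and 1 of the 8 incisor-higher genes had transcripts of at most 2000 bases, as did 41 of all 173 (23.7%).

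**Figure D3:**
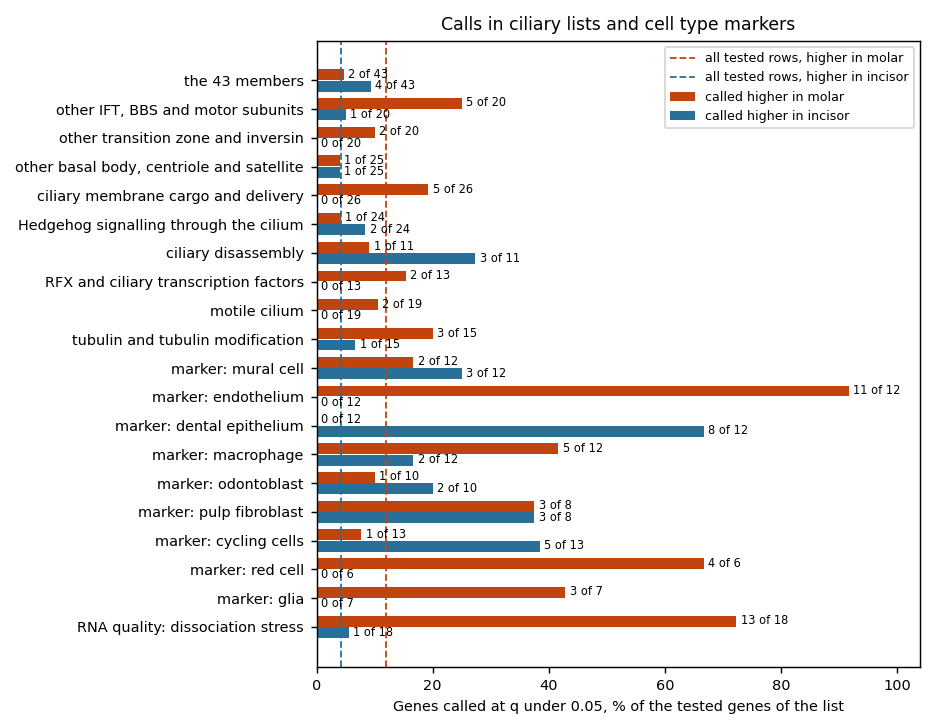
Share of tested genes in each list called higher in molar (upper bar) or higher in incisor (lower bar) at q under 0.05, in %, with counts beside the bars; dashed lines are the shares over all tested rows, 11.9% higher in molar and 4.28% higher in incisor. The 43 members lie below the molar line with 2 and above the incisor line with 4, while endothelial markers reach 11 of 12 higher in molar and dental epithelial markers 8 of 12 higher in incisor.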

How the data were processed

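RNA sequencing of FDG-sorted pulp cells of XLacZ4 mice was used, with 2 molar and 2 incisor libraries per the labels. The deposited table holds 1 FPKM value per tissue, a log2 fold change of molar over incisor without a pseudocount, a test score and the authors' p-value and q-value for each gene, per the file headers. Tools named in the submitters' processing notes are HISAT2, edgeR and Trim Galore, with the build mm10; how the table was made, scaled and annotated is not given in the sources used here. Whether libraries came from separate animals is not stated, so q values may measure only technical spread.

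From the table, 1 row was kept per single-gene symbol (the row with the highest mean FPKM, 273 set aside), 231 joined rows were left out of lists, and starts were moved by 1 base to count from 1. Members were counted by q under 0.05, and list medians used log2((molar + 1) / (incisor + 1)) over genes with at least 1 FPKM in either tissue, a scale that understates low genes. Scripts ran in Python 3.11.15 and counts were tested on simulated data. Transcript lengths were found for 97.1% of genes at 1 FPKM. Alternatives were other thresholds, pseudocounts, minimums and scalings. Named genes were the called members, the extremes of each role with at least 3 members, Ift88, Kif3a, Arl13b, Cep290 and Ift140, the 12 called genes of the other ciliary lists with the widest fold, and Smo, Gpr161, Adcy3, Pkd1, Pkd2, Foxj1 and Rfx3. All members and lists were chosen with earlier results of these data known. Calls toward molar and toward incisor numbered 5 and 2 of 12 for macrophage markers and 1 and 2 of 10 for odontoblast markers. They numbered 3 and 3 of 8 for pulp fibroblasts, 4 and 0 of 6 for red cells, and 3 and 0 of 7 for glia.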

Additional observations from a re-analysis of the deposited data

How the results depend on the processing

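All 6 called members kept their direction under median centring, equal FPKM totals and a pseudocount of 1. The smallest absolute log2 value was 1.05, for Ift43 with equal totals. Their direction could not have changed, since a pseudocount keeps the sign and the smallest called absolute log2 fold, 1.59, exceeds both shifts given below. The authors' q was not recomputed under any scaling. The 2 calls higher in molar remained with q under 0.01, and the 4 higher in incisor numbered 0 there, as their smallest q is 0.0177. The authors' own mark of significance fell on the same 6 members as q under 0.05, so it is not a separate check. Centring shifts every log2 fold by 0.22 and equal totals by 0.60, so small values change sign under them. The median log2 difference of the members, 0.07, was 0.33 with a minimum of 5 FPKM, -0.16 with median centring, -0.49 with equal totals and -0.13 without the 6 genes whose interval overlaps another row. Under settings chosen after seeing the data it was -0.17 relative to the own length class and 0.45 with a mean FPKM of at least 3.78. The median of the other ciliary genes, -0.14, was 0.052 with no minimum, 0.084 with a minimum of 5 FPKM, -0.36 with median centring and -0.56 with equal totals. The cause of these shifts was not tested beyond the settings' own construction. No paired analysis was possible because the table holds a single combined value per tissue, and for the same reason no library could be left out. Depth is unknown, so no counting interval is given.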

Other observations

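Of 15 tested genes for tubulins, the material of the ciliary axoneme and of all other microtubules, and for the enzymes that modify them, 3 were called higher in molar and 1 was called higher in incisor. The median log2 difference was 0.22 over 14 genes. Atat1, the enzyme that acetylates alpha-tubulin in stable microtubules and cilia, had 27.6 FPKM in molar and 2.32 FPKM in incisor in the authors' deposited table (log2 fold 3.57, q = 0.000664). Tpgs1, a subunit of the tubulin polyglutamylase, had 32.7 FPKM in molar and 0.947 FPKM in incisor (log2 fold 5.11, q = 0.00124). Tubb2a had 123.9 FPKM in molar and 24.6 FPKM in incisor, while Tubb5 went the other way, at 470.7 FPKM in molar and 1357 FPKM in incisor; both belong to a family of close copies and are uncertain, and they were named after their values were seen.

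Of 26 genes of motile cilia, 15 lay below 1 FPKM in both tissues. Others were higher, among them Tppp3 at 21.6 FPKM in molar and 17.5 FPKM in incisor and Rsph9 at 8.47 FPKM in molar and 10.1 FPKM in incisor, neither of them called. Foxj1, the master factor of motile cilia, had 0.347 FPKM in molar and 0.209 FPKM in incisor and was not called. Of 19 tested genes, Spef2 (1.77 FPKM in molar and 0.0690 FPKM in incisor, q = 0.0146) and Rsph1 (7.23 FPKM in molar and 1.10 FPKM in incisor) were called higher in molar and none was called higher in incisor. The regulator Mcidas was called with 1.44 FPKM in molar, against a listed 0 in incisor. The molar values of Spef2 and Mcidas lie under the 3.78 FPKM that chemoreceptor genes reached there. Rsph1, Tppp3 and Rsph9 were named after their values were seen.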
